A study of Mus musculus with 36 samples.

Results

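Gene expression of mouse fibroblasts on day 5 of chemical conversion was set against that of the starting fibroblasts. The tested cells were reprogramming intermediates taken on day 5 of treatment with 5 chemicals in photoreceptor induction medium (day 5, n = 3 libraries). Their reference was the untreated starting population, mouse embryonic fibroblasts at passage 2 grown in IMR90 medium (MEF, n = 3 libraries). Both groups carried an Nrl-GFP reporter, in which the promoter of the rod factor Nrl drives a green fluorescent protein, and cells were sorted by reporter expression before RNA extraction, per the labels. These 6 libraries are the only members of the comparison, out of 33 libraries with values and 36 listed samples, which also cover day 8 intermediates, the reprogrammed cells of day 11 (CiPC) and rods isolated from retinas. Medium, chemicals and days of culture all differ between day 5 and MEF, so their parts in a difference cannot be told apart. No label says that the libraries of a group came from separate cultures, so each p-value measures library-to-library spread that could be technical in origin.

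The labels give the number of chemicals and not their names. The published conversion used valproic acid, which inhibits histone deacetylases, CHIR99021, which inhibits the kinase GSK3 and so stabilises beta-catenin, RepSox, which blocks the TGF-beta type I receptor kinase, forskolin, which makes adenylyl cyclase produce cyclic AMP, and IWR1, which stabilises the beta-catenin scaffold axin. Cultured fibroblasts on stiff plastic spread, build actin stress fibres and take on features of myofibroblasts. TGF-beta signalling through Smad proteins, the serum response factor SRF with its actin-sensing cofactors MRTF, and the stretch-sensing coactivators YAP and TAZ with the TEAD factors drive that state. Fibroblasts can also act as sentinels, and under NF-kB, STAT and interferon signalling they secrete acute phase proteins, complement and chemokines.

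Of 15289 genes in the table, 13598 reached at least 1 CPM in at least 3 of the 6 libraries and were tested with limma on log2(CPM + 1), where CPM is the unit of the authors' depth-normalized signal. A gene is called here when its Benjamini-Hochberg adjusted p over all tested genes lay under 0.05 and its fold was at least 2 on that scale, and "rose" and "fell" are used of called genes alone. In all, 1997 genes were higher at day 5 (14.7% of those tested) and 1863 were lower (13.7%), together 28.4%. Counts of list members below are to be read beside these shares. Changes reached at least 4-fold in 699 genes that rose and 624 that fell, at least 16-fold in 161 and 78, and at least 64-fold in 27 and 8. The counts are of table entries, and 178 tested entries share their symbol with another, 17 of them higher and 17 lower. The median change over all tested genes was 0.01 in log2 units. The replicates of both groups did not overlap in 82.1% of tested genes, and an adjusted p under 0.05 at any fold was reached by 81%, so a gene with separate groups was the usual case and the fold carries most of the information. Statements below that libraries were separate describe the values and single out no gene. Each change below is a log2 difference of values after adding 1 CPM, which understates the fold of genes near 0, and values given with ± are mean and SD over 3 libraries unless they are changes, which carry their SE.

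**Figure D1:**
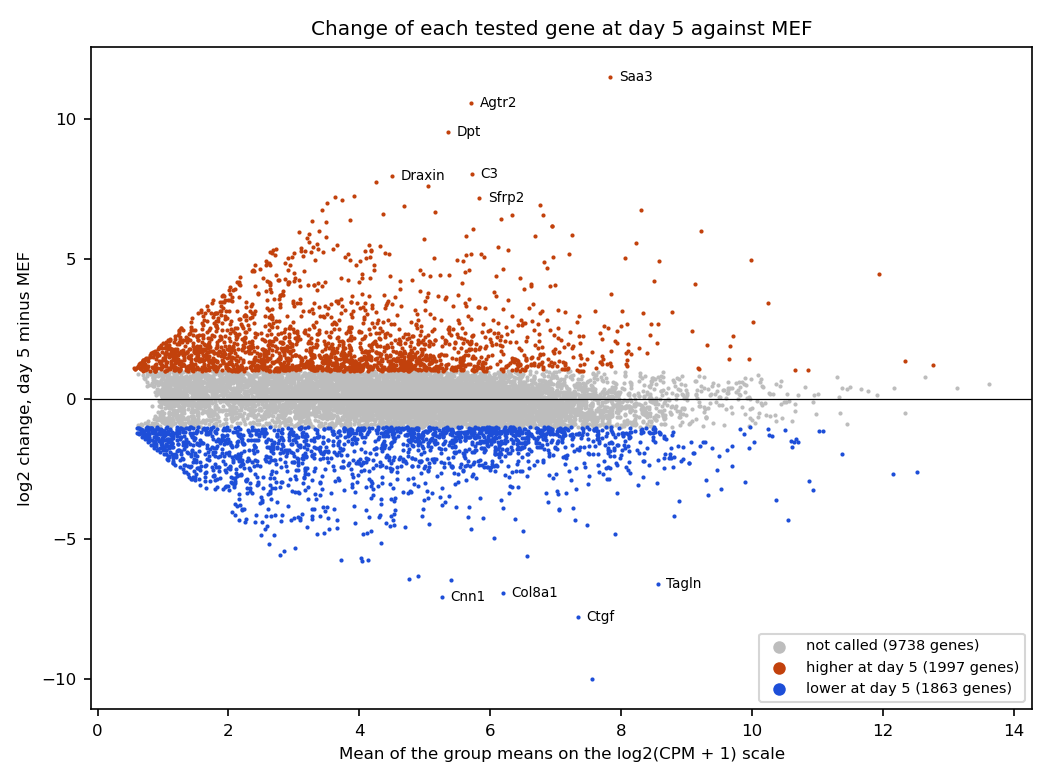
Change of each tested gene (log2 units, day 5 minus MEF, vertical axis) against its level (mean of both groups on the log2(CPM + 1) scale, horizontal axis), with 1 point per gene. Orange points are the 1997 genes higher at day 5, blue points the 1863 lower genes and grey points the 9738 genes not called. The largest rises, led by Saa3 at 11.49, exceed the largest falls among the labelled genes, such as Ctgf at -7.77.

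Column sums of the deposited values were 947096 to 955558 at day 5, against 1027767 to 1030192 in MEF, and the read depth behind them is unknown. Mitochondrially encoded genes took 4.46% to 4.91% of the signal at day 5, against 3.07% to 3.72% in MEF. The 10 most abundant genes took 10.3% to 10.5% of the signal at day 5, against 7.70% to 7.73% in MEF. Libraries correlated across genes at 0.996 or more within a group and at 0.871 between groups. Fibroblast markers were present in both groups, and 9 of 13 were higher at day 5 and 2 lower, Vim and S100a4. Thy1, a fibroblast surface protein, was at 353 ± 11.9 CPM at day 5 against 121 ± 4.43 CPM in MEF. Vim, the intermediate filament vimentin, was at 996 ± 17.4 CPM at day 5 against 2685 ± 28.0 CPM in MEF. Nrl, whose promoter drives the reporter, was under 1 CPM in every library, at 0.0411, 0.0823 and 0.331 CPM at day 5, against 0.271, 0.170 and 0.270 CPM in MEF. Crx, the homeobox factor of photoreceptors, was likewise at 0.324, 0.346 and 0.608 CPM at day 5, against 0.407, 0.186 and 0.579 CPM in MEF, and both groups overlapped for each of these genes, which were too low to be tested. The labels give the reporter sort for every sample, and with so little Nrl signal in both groups it is unclear how the sort was applied to MEF and day 5 cells and which population these libraries represent. Of 18 rod photoreceptor genes listed, 4 were tested, 0 rose and 1 fell, the broadly expressed G protein subunit Gnb1. The reporter transcript itself was not analysed here.

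The gene with the largest rise was Saa3 (chromosome 7, 46711998 to 46715700, minus strand; coordinates are GRCm38), an acute phase protein of the serum amyloid family that mouse cells outside the liver secrete. It was at 12314, 12052 and 12172 CPM at day 5, against 3.12, 2.86 and 3.81 CPM in MEF, a change of 11.49 ± 0.069 (adjusted p = 1.23e-13). All day 5 libraries lay far above every MEF library. Agtr2 (chromosome X, 21484544 to 21489164, plus strand), the type 2 receptor of angiotensin II, was at 1986, 2029 and 2072 CPM at day 5, against 0.192, 0.537 and 0.324 CPM in MEF, a change of 10.56 ± 0.083 (adjusted p = 3.34e-13). Dpt (chromosome 1, 164796644 to 164824266, plus strand), dermatopontin, a matrix protein that binds collagen fibrils and decorin, was at 1105, 1094 and 1129 CPM at day 5, against 0.515, 0.716 and 0.298 CPM in MEF. Both genes were below 1 CPM in every MEF library. C3 (chromosome 17, 57203970 to 57228136, minus strand), the central protein of the complement cascade, was at 826, 834 and 868 CPM at day 5, against 2.89, 1.92 and 2.04 CPM in MEF, a change of 8.02 ± 0.097. Draxin (chromosome 4, 148098437 to 148130698, minus strand), a secreted protein that repels axons and antagonises Wnt, was at 347, 364 and 356 CPM at day 5, against 0.317, 0.474 and 0.496 CPM in MEF. Steap4, a membrane metalloreductase, was at 279.6, 272 and 279 CPM at day 5, against 0.502, 0.195 and 0.210 CPM in MEF. No MEF library overlapped a day 5 library for any of these genes.

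The next of the largest rises included 3 genes of the matrix and its signals. Kera, keratocan, a proteoglycan best known from the cornea, was at 157, 143 and 151 CPM at day 5, against 0, 0.0386 and 0 CPM in MEF. Egfl6, a secreted protein with EGF repeats, was at 191, 183 and 182 CPM at day 5, against 0.256, 0.316 and 0.125 CPM in MEF. Sfrp2, a secreted frizzled-like modulator of Wnt, was at 671, 727 and 657 CPM at day 5, against 3.08, 3.89 and 4.20 CPM in MEF. The MEF libraries lay near 0 for the first of these and at a few CPM for Sfrp2. Enpp2, autotaxin, which makes lysophosphatidic acid, rose by 7.60 ± 0.056. Reg3g, an antibacterial lectin, rose by 6.98 ± 0.077. The largest adjusted p among the genes named by size of change was 4.4e-09.

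The largest falls included several genes of contractile and stretched fibroblasts. Ctgf (chromosome 10, 24595442 to 24598683, plus strand), a matricellular protein and a standard target of YAP and of TGF-beta, was at 10.3, 9.96 and 9.51 CPM at day 5, against 2387, 2351 and 2418 CPM in MEF, a change of -7.77 ± 0.038 (adjusted p = 3.94e-14). Tagln (chromosome 9, 45929619 to 45936058, minus strand), the actin-binding protein transgelin, was at 38.4, 34.7 and 38.2 CPM at day 5, against 3649, 3798 and 3699 CPM in MEF. Cnn1 (chromosome 9, 22099216 to 22109630, plus strand), calponin of smooth muscle, was at 2.33, 2.60 and 2.09 CPM at day 5, against 419.7, 449 and 452 CPM in MEF. Every day 5 library was lower than every MEF library for these genes. Col8a1, a short-chain collagen, was at 5.65, 5.21 and 5.94 CPM at day 5, against 839, 788 and 795 CPM in MEF. Hbegf (chromosome 18, 36504927 to 36515805, minus strand), a growth factor that binds heparin and the EGF receptor, was at 2.09, 1.83 and 1.80 CPM at day 5, against 242, 254 and 255 CPM in MEF. Tinagl1, a matricellular protein of basement membranes, fell by 6.45 ± 0.11, and Actg2, the gamma actin of smooth muscle, fell by 6.32 ± 0.075. Serpinb9b, a serine protease inhibitor, fell by 5.77 ± 0.13 and Siglecg, a sialic acid-binding receptor of B cells, fell by 5.76 ± 0.20. Sfn, the 14-3-3 sigma protein of epithelia, fell by 5.73 ± 0.073 and Fgd3, an exchange factor of Cdc42, fell by 5.66 ± 0.094.

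**Figure D2:**
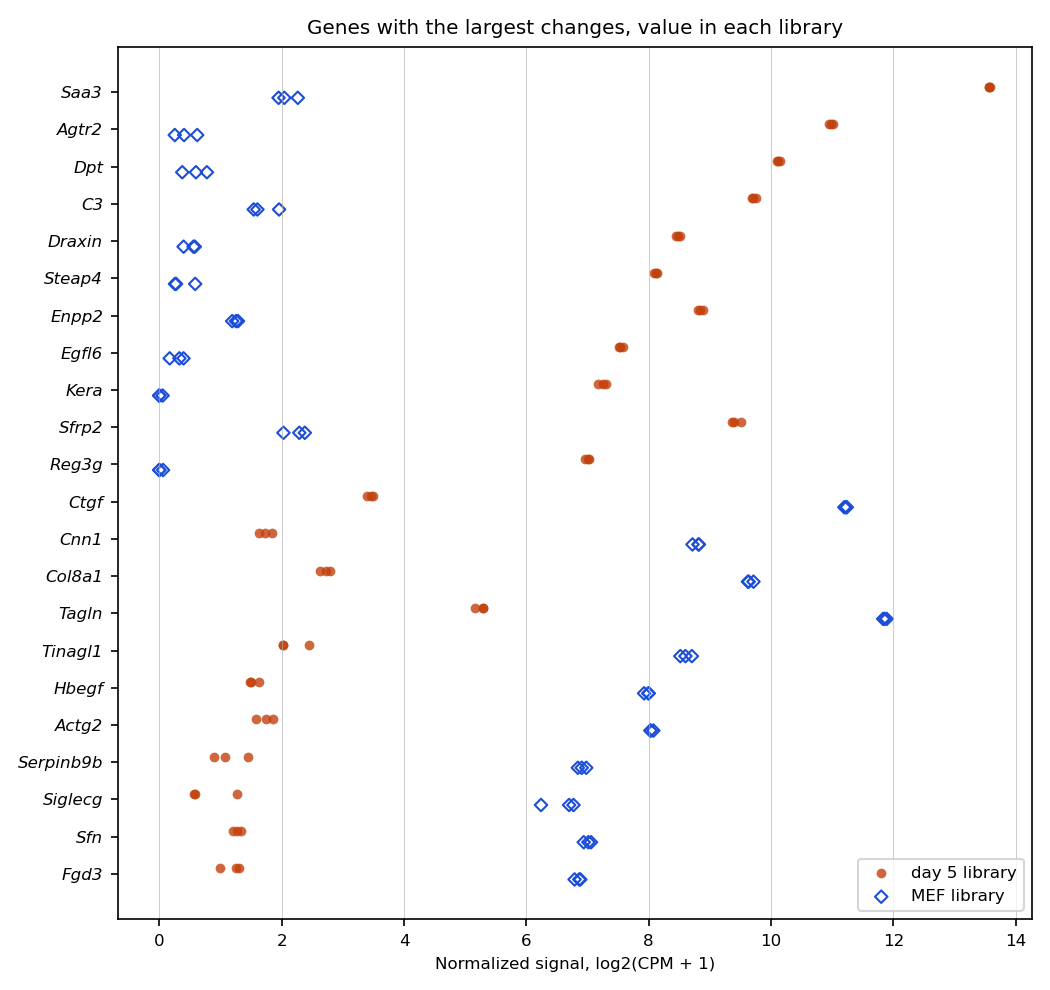
Normalized signal on the log2(CPM + 1) scale (horizontal axis) of the reported genes among the 12 with the largest rise and the 12 with the largest fall, in each library. Filled circles are day 5 libraries and open diamonds MEF libraries, and the groups stand apart for every gene shown, from Saa3 with its rise of 11.49 to Ctgf with its change of -7.77.

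**Figure D3:**
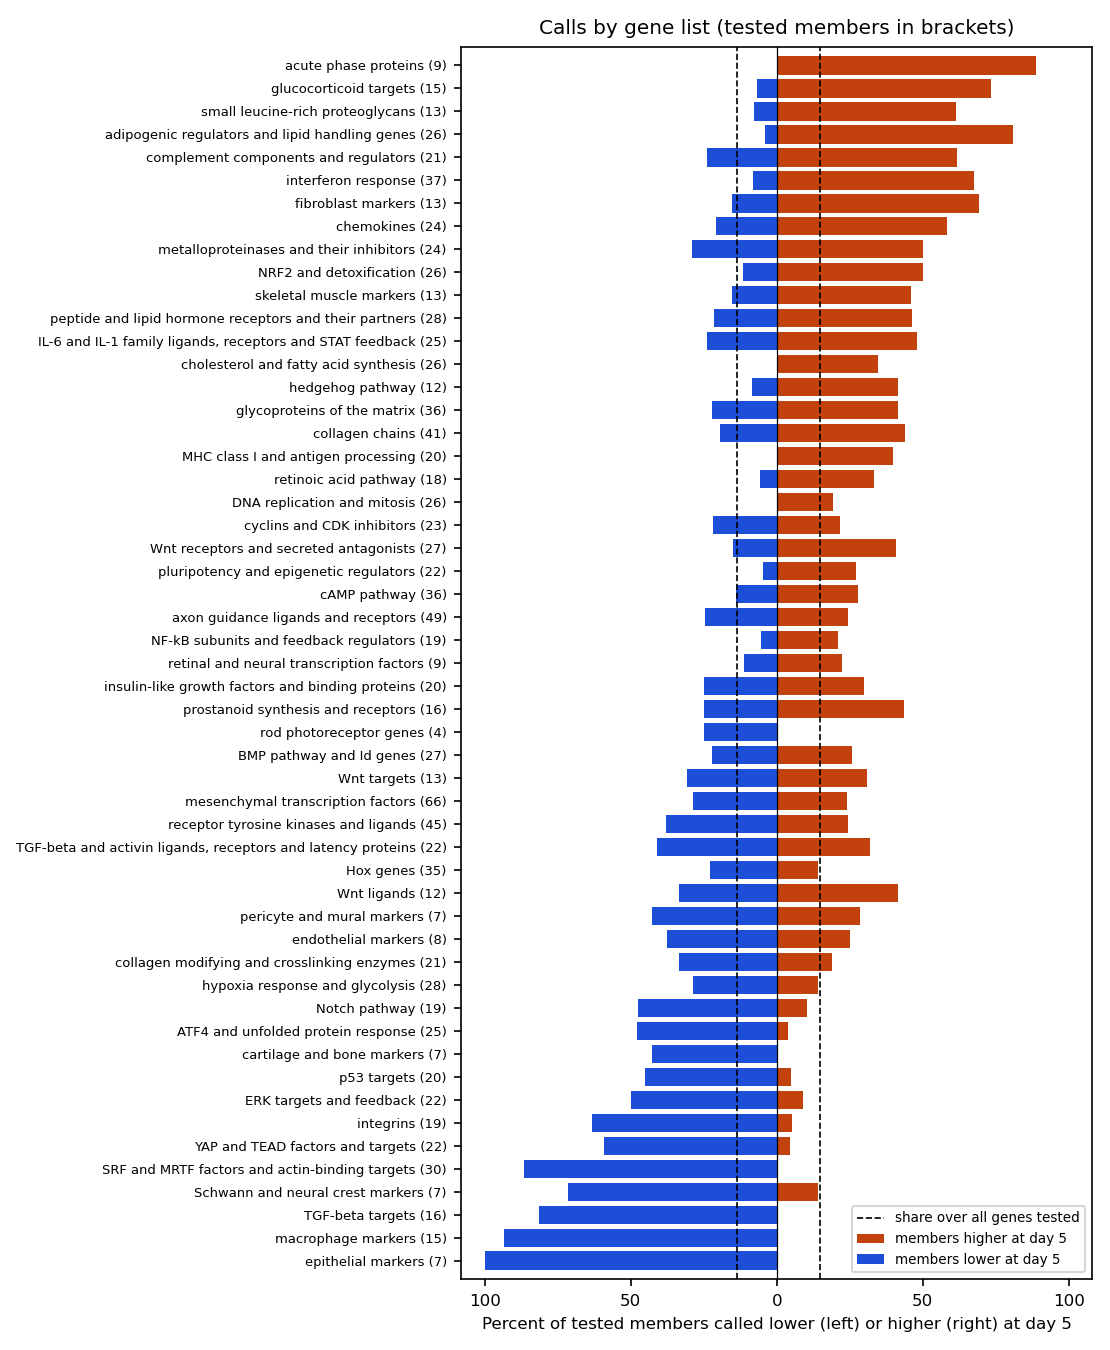
Percent of the tested members of each of 53 gene lists called higher at day 5 (orange, to the right) or lower at day 5 (blue, to the left), ordered by the list's median change. Dashed lines mark the shares over all tested genes, 14.7% higher and 13.7% lower, and acute phase proteins lead at the top while TGF-beta targets, macrophage markers and epithelial markers lie at the bottom.

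Actin cytoskeleton genes were lower at day 5 as a group. Of 30 genes for SRF, its cofactors and their actin-binding targets, 0 rose and 26 fell (86.7% called, against 28.4% of all genes), with a median change of -2.22. Acta2, the alpha actin of smooth muscle and the usual mark of myofibroblasts, was at 322, 335 and 344 CPM at day 5, against 6703, 6782 and 6737 CPM in MEF, a change of -4.33 ± 0.030. Myh11, the smooth muscle myosin heavy chain, was at 3.94, 3.83 and 3.05 CPM at day 5, against 104, 105 and 105 CPM in MEF. Neither gene overlapped between groups. Actn1, the crosslinker alpha-actinin, fell by 4.19 ± 0.030, and Tpm1, a tropomyosin, fell by 3.61 ± 0.028. Of the cytoplasmic actins, Actb fell by 1.15 ± 0.042 and Actg1 fell by 1.97 ± 0.024. The regulators changed by less than 2-fold or barely more, with Srf at 82.8 ± 4.28 CPM at day 5 against 106 ± 6.80 CPM in MEF and its cofactor Mkl2 at 40.6 ± 1.08 CPM at day 5 against 60.3 ± 0.575 CPM in MEF, both not called, while the cofactor Mkl1 fell by 1.02 ± 0.052. The calls of Actb and Mkl1 were lost after quantile normalization, and that of Mkl1 also without day 5 replicate 3 or MEF replicate 3. Of 7 pericyte and mural cell markers, 2 rose and 3 fell. Mcam fell by 4.96 ± 0.075 and Rgs5 fell by 4.70 ± 0.12, and the list's summed signal was 334 to 357 CPM at day 5, against 764 to 797 CPM in MEF. The part of such cells in the fall was not tested. In these bulk samples fewer cells of a kind and less RNA per cell cannot be told apart.

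A CArG box, the SRF site of A and T bases between CC and GG, lay in the RefSeq promoter window (GRCm38.p6, 250 bases before to 50 after the start) of 7 of 23 list members with a window, or 30.4%. Among all 27025 windows 1.57% held it, among genes lower at day 5 2.34%, among genes higher at day 5 0.964% and among tested genes not called 1.16%. Both strands were searched, and the list was drawn from known SRF targets, and the motif was chosen after values were seen, so the share describes the list. The upstream stretches of Vcl, Myl9 and Fhl1 are shown because they carry the box, in capitals, within the promoters of a focal adhesion protein, a myosin light chain and a LIM protein that fell together.
Vcl (chr14:20929148-20929205, plus strand): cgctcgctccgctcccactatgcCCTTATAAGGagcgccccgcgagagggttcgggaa
Myl9 (chr2:156775278-156775337, plus strand): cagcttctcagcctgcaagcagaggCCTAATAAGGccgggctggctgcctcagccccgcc
Fhl1 (chrX:56779556-56779615, plus strand): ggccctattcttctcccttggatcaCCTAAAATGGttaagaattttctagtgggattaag
Vcl, vinculin, which links integrins to actin, was at 312 ± 2.32 CPM at day 5 against 911 ± 12.4 CPM in MEF. Myl9, the regulatory light chain of nonmuscle and smooth muscle myosin, was at 38.8 ± 0.931 CPM at day 5 against 595 ± 15.4 CPM in MEF. Fhl1, a LIM domain protein of muscle and fibroblasts, was at 32.6 ± 0.584 CPM at day 5 against 522 ± 7.24 CPM in MEF. Each of these genes had all day 5 libraries below all MEF libraries.

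Targets of YAP and TEAD were lower along with actin genes. Of 22 factors and targets tested, 13 fell and 1 rose, with a median of -1.65. Ankrd1, a nuclear ankyrin repeat protein and a sensitive readout of YAP, was at 13.2, 12.1 and 12.6 CPM at day 5, against 261, 249.9 and 256 CPM in MEF. Cyr61, the matricellular relative of Ctgf, was at 102, 107 and 105 CPM at day 5, against 873, 876 and 895 CPM in MEF. For both, each day 5 library lay at least several times below each MEF library. Crim1, a transmembrane regulator of growth factors, fell by 3.67 ± 0.041. The hippo kinase Lats2, itself a YAP target, fell by 2.04 ± 0.051, whereas Lats1 was at 57.9 ± 2.47 CPM at day 5 against 93.7 ± 1.49 CPM in MEF and was not called. Yap1 and its paralog Wwtr1, which encodes TAZ, were at 155 ± 3.51 CPM at day 5 against 229 ± 8.54 CPM in MEF and at 185 ± 1.03 CPM at day 5 against 145 ± 4.32 CPM in MEF, and neither was called. Nt5e, the surface enzyme CD73 that makes adenosine, was the member that rose, by 3.09 ± 0.094.

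The sequence GGAATG, the core of TEAD sites, occurred on either strand in the promoter windows of 11 of 16 members of the YAP and TEAD list (68.8%), against 14.6% of all windows. Genes lower at day 5 held it in 14.6% of windows, the same share as all windows, genes higher at day 5 in 12.7% and tested genes not called in 11.4%. As with the CArG box, the list was drawn from known targets and the motif chosen after values were seen, so its share describes the list. The Ankrd1 stretch is shown for its pair of matches, in capitals, and 0 of the matches shown for any motif overlapped a match of another motif.
Ankrd1 (chr19:36119937-36120079, minus strand): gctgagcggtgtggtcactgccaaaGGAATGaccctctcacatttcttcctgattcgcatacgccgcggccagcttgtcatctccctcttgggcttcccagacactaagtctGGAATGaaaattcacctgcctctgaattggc
A match is a string of letters and not a measured binding site.

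Integrins, the receptors that anchor cells to the matrix, were mostly lower. Of 19 subunits tested, 12 fell and 1 rose, with a median of -1.53. Itgb1, the beta subunit shared by most matrix receptors, was at 687, 661 and 682 CPM at day 5, against 5329, 5098 and 5008 CPM in MEF, so that every day 5 library was below every MEF library. The alpha subunit Itga5, which pairs with Itgb1 to bind fibronectin, was at 171 ± 2.52 CPM at day 5 against 948 ± 22.2 CPM in MEF. Itga3, a laminin receptor subunit, fell by 3.51 ± 0.11, Itga4, which binds fibronectin and VCAM1, fell by 2.57 ± 0.086, and Itga2, a collagen receptor subunit, fell by 2.53 ± 0.11. Itgb8, whose heterodimer with alpha V binds latent TGF-beta, rose by 1.64 ± 0.098.

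**Figure D4:**
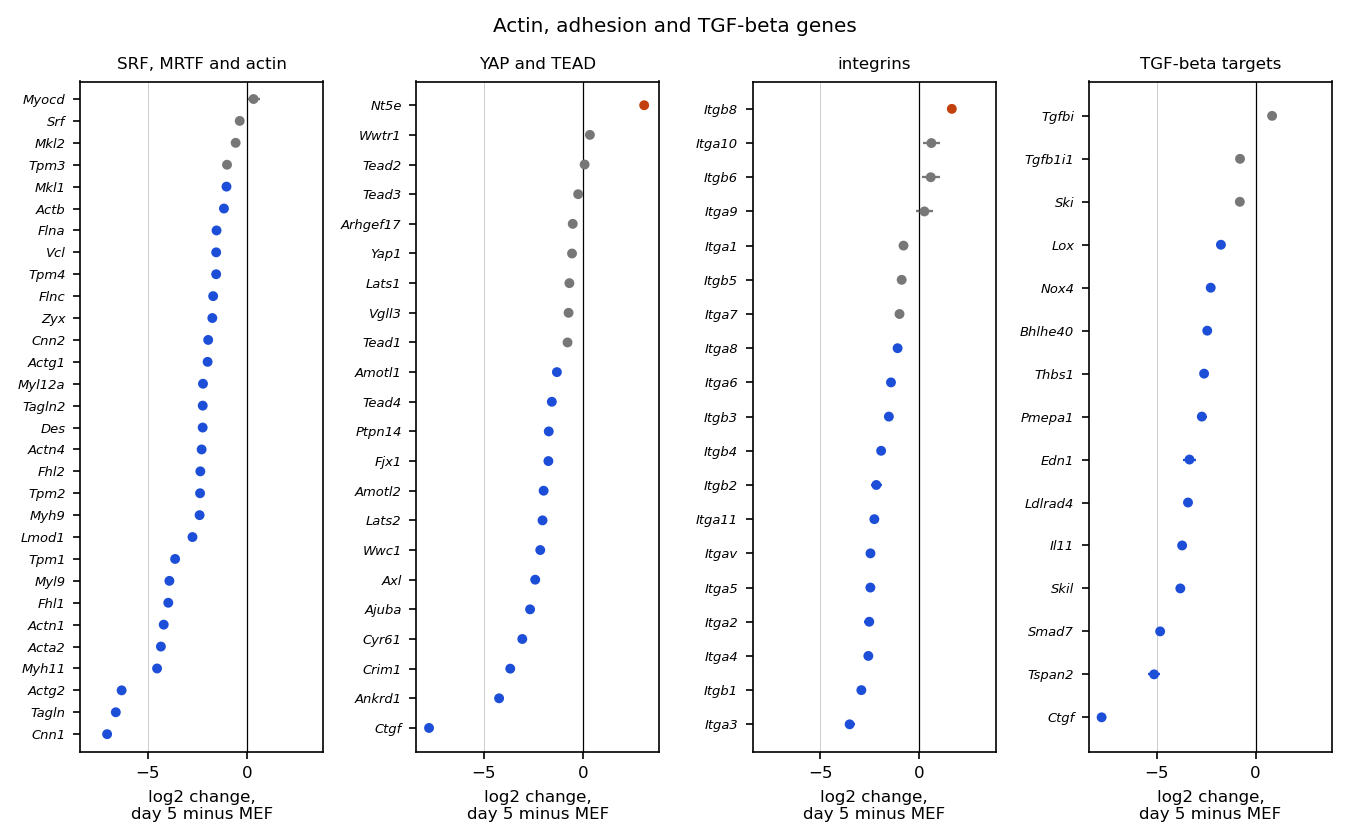
Change at day 5 against MEF (log2 units, points, with 95% confidence intervals from limma as bars, often smaller than the point) of reported members of 4 lists that were tested. Orange marks members called higher, blue members called lower and grey members not called. Of the members drawn, Nt5e and Itgb8 rose, and the other called members fell.

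Among 16 targets of TGF-beta signalling, 13 fell, 0 rose and 3 were not called, with a median change of -3.02. Smad7, the inhibitory Smad that the pathway induces as its own brake, was at 1.95, 2.30 and 2.18 CPM at day 5, against 90.0, 89.7 and 83.0 CPM in MEF. Skil, a corepressor with the same feedback role, was at 9.48, 9.81 and 8.59 CPM at day 5, against 143, 138 and 145 CPM in MEF. Day 5 and MEF libraries were separate for both. Tspan2, a tetraspanin, fell by 5.12 ± 0.14 and Il11, a cytokine that fibroblasts make under TGF-beta, fell by 3.71 ± 0.097. Thbs1, thrombospondin, an activator of latent TGF-beta, was at 2368, 2357 and 2406 CPM at day 5, against 14170.1, 14609 and 14419 CPM in MEF and fell. Tgfbi, a secreted protein named for its induction by TGF-beta, was at 79.8 ± 0.899 CPM at day 5 against 44.3 ± 0.818 CPM in MEF and was not called.

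The pathway's own components split. Of 22 ligands, receptors, Smads and latency proteins, 7 rose and 9 fell. Tgfbr3, betaglycan, the coreceptor that presents TGF-beta2, was at 425, 432 and 442 CPM at day 5, against 6.73, 5.08 and 4.94 CPM in MEF. Inhbb, a subunit of activin B, rose by 3.15 ± 0.047, while Inhba, the subunit of activin A, was at 42.9, 45.5 and 43.2 CPM at day 5, against 1231, 1259 and 1313 CPM in MEF and so lower in every day 5 library. Among ligands, Tgfb2 rose by 1.43 ± 0.034, and Tgfb1 and Tgfb3 changed by -1.50 ± 0.083 and -3.03 ± 0.036. The type II receptor Tgfbr2 rose by 1.66 ± 0.038, and the type I receptor Tgfbr1 was at 62.9 ± 2.48 CPM at day 5 against 69.4 ± 1.53 CPM in MEF, not called. Also higher were Ltbp4, a latency protein, the activin receptor Acvr1b and the muscle inhibitor Mstn. The latency protein Ltbp2 fell by 3.85 ± 0.10, and Fstl3, an activin trap, fell by 2.98 ± 0.092.

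BMP genes moved in both directions, with 7 of 27 higher and 6 lower, or 48.1% called, against 28.4% of all genes. Gdf10, also called BMP3B, was at 82.0, 83.7 and 82.2 CPM at day 5, against 0.276, 0.296 and 0.364 CPM in MEF, and all MEF libraries were below 1 CPM. Bmp7 rose by 2.17 ± 0.11, Bmp2 by 1.98 ± 0.12 and Bmp3 by 1.77 ± 0.12. Grem1, a secreted BMP antagonist, fell by 2.23 ± 0.043, Gdf6 fell by 3.02 ± 0.063 and the receptor Bmpr1b fell by 2.02 ± 0.11. Of the Id genes, direct BMP targets that block basic helix-loop-helix factors, Id1 fell by 1.08 ± 0.10 and Id3 fell by 1.07 ± 0.095, and Id2 was at 24.4 ± 0.522 CPM at day 5 against 24.6 ± 1.31 CPM in MEF. The call of Id3 was lost after quantile normalization and without MEF replicate 3. The receptor Bmpr2 also fell. With either other pseudocount, a filter at 5 CPM or another fold threshold, falling members outnumbered rising ones, 6 to 4 for the filter.

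Matrix genes moved in both directions. Of 41 collagen chains, 18 rose and 8 fell, with a median change of 0.70. Type VI collagen, the microfibril collagen around cells, was among the largest rises. Col6a3 was at 3176, 3176 and 3382 CPM at day 5, against 29.3, 36.2 and 24.4 CPM in MEF, Col6a2 rose by 5.04 ± 0.063 and Col6a1 by 4.12 ± 0.029. Col3a1, a chain of the fibrils of soft tissue, was at 19150.0, 17715 and 17913 CPM at day 5, against 823, 878 and 813 CPM in MEF, and day 5 libraries exceeded all MEF libraries for both genes. Col23a1, a transmembrane collagen, rose by 6.61 ± 0.085 and Col15a1, a basement membrane zone collagen, by 5.41 ± 0.079. Col1a1, which encodes the main chain of the most common fibril, was at 10532 ± 1023 CPM at day 5 against 4545 ± 621 CPM in MEF, and it rose by 1.22 ± 0.096. Of the falling chains, Col8a1 was followed by Col10a1, of hypertrophic cartilage, at -4.51 ± 0.11, Col2a1, of cartilage, at -4.21 ± 0.095 and Col7a1, of anchoring fibrils, at -2.72 ± 0.090. The others were Col28a1, Col4a3, Col4a1 and Col11a1, with changes from -1.46 to -1.08. Cartilage and bone markers had 3 of 7 members lower and 0 higher, with a summed signal of 66.0 to 72.7 CPM at day 5, against 922 to 982 CPM in MEF, and their part in the fall of Col2a1 and Col10a1 was not tested.

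The enzymes that trim and crosslink collagen moved differently from its chains. Of 21 tested, 4 rose and 7 fell. Adamts2, which removes the amino propeptide of fibrillar procollagens, was at 752, 783 and 766 CPM at day 5, against 11.5, 13.7 and 12.6 CPM in MEF, and the groups did not overlap. Its relatives Adamts14 and Adamts3 rose by 1.78 ± 0.065 and by 1.60 ± 0.11, and the lysyl hydroxylase Plod1 by 1.21 ± 0.056. Lox, which oxidises lysines to crosslink collagen, was at 539 ± 5.36 CPM at day 5 against 1815 ± 70.9 CPM in MEF. Plod2, the telopeptide lysyl hydroxylase, fell by 2.57 ± 0.047, P4ha3, a prolyl hydroxylase subunit, fell by 2.07 ± 0.062, and Loxl2 fell by 1.73 ± 0.034.

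Small leucine-rich proteoglycans, which sit on collagen fibrils and set their spacing, were mostly higher, with 8 of 13 rising and 1 falling, and 2 falling without day 5 replicate 2. Dcn, decorin, was at 4903, 4665 and 4743 CPM at day 5, against 75.3, 74.0 and 72.0 CPM in MEF. Lum, lumican, was at 1114, 1058 and 1073 CPM at day 5, against 11.2, 10.4 and 9.99 CPM in MEF. Fmod, fibromodulin, was at 60.1, 57.5 and 60.0 CPM at day 5, against 3.18, 3.72 and 3.61 CPM in MEF. Every day 5 library was higher than every MEF library for these, as for Kera. Dcn, Lum, Kera and Epyc are 4 adjacent tested genes on chromosome 10, between 97479609 and 97682454, and all rose. Bgn, biglycan, which lies on the X chromosome and is the closest relative of decorin, was the member that fell, at 798 ± 17.4 CPM at day 5 against 1980.2 ± 7.69 CPM in MEF.

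Glycoproteins of the matrix also leaned upward by count, with 15 of 36 higher and 8 lower. Their summed signal was lower, at 30090 to 30640 CPM at day 5 against 47510 to 49120 CPM in MEF. Abundant members such as Fn1 and Tnc were among those that fell. After Dpt, the largest rises were in Tnxb, tenascin X, by 5.27 ± 0.11, Emilin2, an elastic fibre protein, by 5.16 ± 0.070, and Fbln1, fibulin 1, by 5.08 ± 0.081. Postn, periostin, was at 2667 ± 60.6 CPM at day 5 against 398 ± 4.16 CPM in MEF. Fn1, fibronectin, was at 1794, 1799 and 1830.1 CPM at day 5, against 11142, 11682 and 11535 CPM in MEF. Tnc, tenascin C, was at 623, 629 and 629.9 CPM at day 5, against 5840.5, 6059 and 6039.6 CPM in MEF. Spp1, osteopontin, fell by 4.50 ± 0.056 and Fbln5, fibulin 5, fell by 2.90 ± 0.036, and Lama5, Mfap5, Thbs1 and Fbln2 were the others. The tenascins Tnxb and Tnc were thus called in opposite directions.

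Of 24 metalloproteinases and inhibitors, 12 rose and 7 fell. Mmp13, a collagenase, was at 677, 645 and 663 CPM at day 5, against 6.17, 6.43 and 7.52 CPM in MEF. Adamts15, a versican-cleaving protease, was at 351, 366 and 358 CPM at day 5, against 2.33, 2.69 and 2.56 CPM in MEF. All day 5 libraries lay above all MEF libraries for both. Mmp3, stromelysin, rose by 4.43 ± 0.050 and Adamts1 by 2.41 ± 0.033. Among the tissue inhibitors, Timp1 fell by 2.85 ± 0.034 and Timp3 fell by 3.35 ± 0.031, Timp2 was at 1184 ± 26.7 CPM at day 5 against 2064 ± 24.3 CPM in MEF and was not called, and Timp4 rose by 1.14 ± 0.26, a call lost after quantile normalization and without day 5 replicate 3 or MEF replicate 1. The protease Mmp10 fell by 2.42 ± 0.13, and Mmp15, Mmp12, Mmp9 and Mmp23 also fell.

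**Figure D5:**
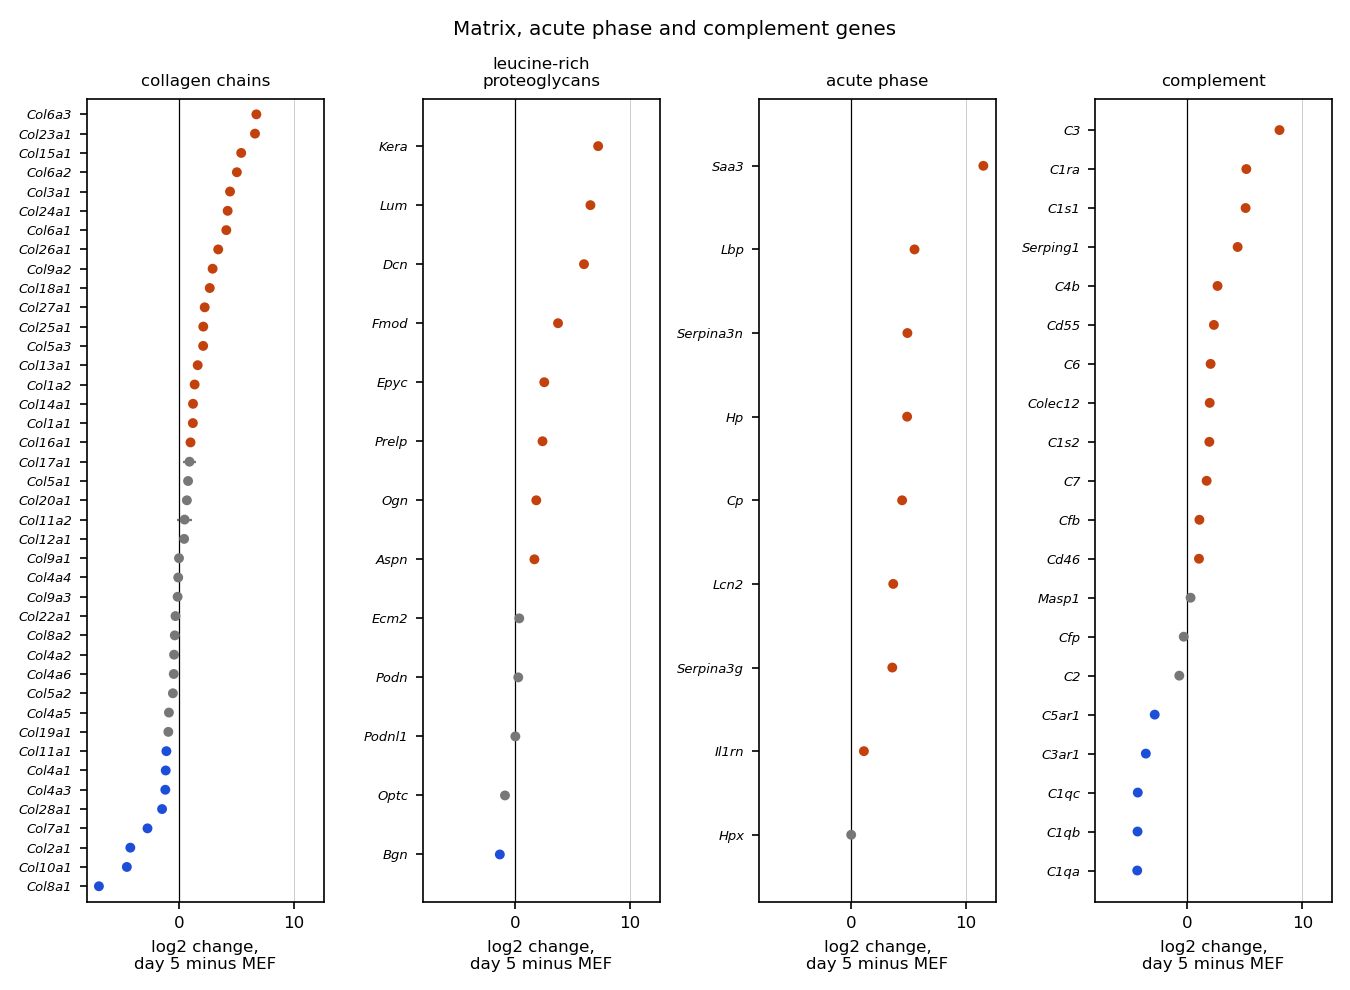
Change at day 5 against MEF (log2 units, points, with 95% confidence intervals from limma as bars, often smaller than the point) of reported members of 4 lists that were tested. Orange marks members called higher, blue members called lower and grey members not called. Type VI collagen chains, keratocan, lumican and decorin, Saa3 and C3 lie at the top, and Col8a1, Bgn and the C1q chains at the bottom.

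Acute phase proteins, which the liver and inflamed tissues secrete, were mostly higher among the members that could be tested. Of 21 listed, 16 were in the table and 9 were tested, the others being too low. Of the 9 tested, 8 rose and 0 fell (88.9% called, against 28.4% of all genes), with a median of 4.44. The filter can favour rises here, since members near 0 in MEF, such as Hp, were tested only through their day 5 level. Lbp, which carries bacterial lipopolysaccharide to its receptor, was at 122, 119 and 113 CPM at day 5, against 1.69, 2.18 and 1.07 CPM in MEF. Serpina3n, a protease inhibitor, was at 609.6, 611 and 625 CPM at day 5, against 19.1, 19.5 and 20.6 CPM in MEF. Hp, haptoglobin, was at 31.1, 32.0 and 31.8 CPM at day 5, against 0.143, 0.0658 and 0.140 CPM in MEF, and Cp, the ferroxidase ceruloplasmin, rose by 4.44 ± 0.065. In each of these, MEF libraries lay below all day 5 libraries. The Serpina3 genes are near-identical copies on chromosome 12, so how their reads were divided is uncertain. Saa1 and Saa2, the serum amyloids of the liver, were listed at 0 in all MEF libraries and stayed under 1 CPM at day 5, and so were not tested.

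Complement genes were higher in 13 of 21 tested and lower in 5. Beside C3, the proteases of the classical pathway C1ra and C1s1 were at 291 ± 3.60 CPM at day 5 against 7.31 ± 0.865 CPM in MEF and at 345 ± 8.33 CPM at day 5 against 9.25 ± 0.359 CPM in MEF, with close copies next to them on chromosome 6. Serping1, the inhibitor of both, rose by 4.38 ± 0.057. The 5 that fell are known as genes of macrophages. C1qa was at 1.03, 0.786 and 0.889 CPM at day 5, against 33.8, 38.0 and 40.0 CPM in MEF, C1qb and C1qc changed by -4.30 ± 0.095 and -4.28 ± 0.10, and the receptors C3ar1 and C5ar1 changed by -3.58 ± 0.11 and -2.81 ± 0.14. Macrophage markers as a list had 0 of 15 higher and 14 lower, with a summed signal of 67.6 to 77.5 CPM at day 5, against 586 to 599 CPM in MEF. Their defining genes Csf1r, the receptor of colony stimulating factor 1, and Adgre1, the F4/80 antigen, were at 1.62 ± 0.225 CPM at day 5 against 49.1 ± 2.90 CPM in MEF and at 1.61 ± 0.161 CPM at day 5 against 20.8 ± 0.293 CPM in MEF, so neither reached 0 at day 5. The part of macrophages in the fall of the C1q and receptor genes was not tested.

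Chemokines were higher in 14 of 24 tested and lower in 5. Cxcl5, which attracts neutrophils, was at 99.7, 98.7 and 99.5 CPM at day 5, against 0.179, 0.217 and 0.357 CPM in MEF. Ccl11, eotaxin, was at 24.1, 24.2 and 23.1 CPM at day 5, against 0.0838, 0.0389 and 0.0417 CPM in MEF. Ccl8, which attracts monocytes, was at 19.9, 19.8 and 19.2 CPM at day 5, against 0 in all 3 MEF libraries. The MEF libraries were below 1 CPM for all of these and the day 5 libraries above 10. Cxcl1, another neutrophil chemokine, rose by 4.51 ± 0.11. Cxcl12, the stromal chemokine that retains blood stem cells, was at 1298 ± 24.4 CPM at day 5 against 487 ± 5.97 CPM in MEF. Cxcl14, Ccl17 and Ccl20 changed by -3.03 ± 0.062, -3.08 ± 0.10 and -2.57 ± 0.12, and Ccl9 and Cx3cl1 also fell. With a pseudocount of 0.5, 8 fell.

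Of 19 NF-kB subunits and regulators, 4 were higher and 1 lower, a share of 26.3% called that lay close to the 28.4% of all genes. Bcl3, a nuclear IkB protein, was at 29.3, 31.4 and 26.7 CPM at day 5, against 3.62, 2.18 and 3.03 CPM in MEF. Nfkbia, the inhibitor IkB alpha, which NF-kB induces as its own brake, was at 99.2, 103 and 100.4 CPM at day 5, against 25.7, 25.9 and 22.5 CPM in MEF. Day 5 libraries were above MEF libraries for both. Ikbke and Birc3 rose by 1.75 ± 0.064 and by 1.68 ± 0.14, and the deubiquitinase Cyld fell by 1.19 ± 0.054. The subunits Rela and Nfkb1 were at 58.3 ± 2.41 CPM at day 5 against 87.5 ± 3.73 CPM in MEF and at 71.1 ± 3.32 CPM at day 5 against 60.9 ± 0.860 CPM in MEF, and neither was called. An NF-kB site lay in 8 of 15 windows of the list (53.3%), against 4.35% of all windows, 6.74% of genes higher at day 5, 5.7% of genes lower and 4.71% of tested genes not called. The list was drawn from known members of the pathway and the motif chosen after values were seen, so the list's share describes the list. Of the 8 members with a site, Nfkbia and Bcl3 rose and Cyld fell. The others, Rel, Nfkb2, Nfkbie, Tnfaip3 and Tnip1, were not called. The stretches of Nfkbia and of Cxcl1, a chemokine outside this list, are shown because both rose and carry the site, in capitals.
Cxcl1 (chr5:90891149-90891209, plus strand): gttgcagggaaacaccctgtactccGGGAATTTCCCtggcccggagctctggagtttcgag
Nfkbia (chr12:55492648-55492701, minus strand): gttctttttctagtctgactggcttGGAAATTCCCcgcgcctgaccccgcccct
In Cxcl1 the capitals cover 2 overlapping matches.

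Genes of interleukin 6 and interleukin 1 signalling moved in both directions. Of 25 ligands, receptors and STAT feedback genes, 12 rose and 6 fell. Il1r1, the signalling receptor of interleukin 1, was at 421, 396 and 408 CPM at day 5, against 22.5, 22.1 and 23.8 CPM in MEF. Il6st, gp130, the signal chain shared by the interleukin 6 family, was at 735, 733 and 766 CPM at day 5, against 183, 186 and 194 CPM in MEF. The groups did not overlap for either, as for 82.1% of all tested genes. Il1r2, the decoy receptor, rose by 3.08 ± 0.10, Lifr by 2.81 ± 0.076 and Osmr by 1.82 ± 0.043. Socs3, the feedback inhibitor of STAT3 signalling, was at 83.0 ± 1.80 CPM at day 5 against 9.27 ± 0.386 CPM in MEF. The ligands Il11, Lif and Il6 changed by -3.71 ± 0.097, -3.20 ± 0.098 and -2.22 ± 0.12, together with Clcf1, the inhibitor Socs2 and Il1rl1, the receptor of interleukin 33.

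Interferon response genes rose in 25 of 37 tested, with 3 lower and a median of 1.62. Ifi204 and Ifi203, DNA-binding proteins of the Ifi200 family, rose by 4.94 ± 0.069 and by 4.57 ± 0.088, and close relatives beside them on chromosome 1 make the split of reads uncertain. Ifi27, a membrane protein of mitochondria, rose by 3.37 ± 0.068. Ifit1, which binds foreign RNA, was at 14.6, 16.1 and 15.3 CPM at day 5, against 1.49, 0.620 and 1.29 CPM in MEF. Ifit3, its partner, was at 18.6, 17.3 and 17.8 CPM at day 5, against 2.08, 1.65 and 2.71 CPM in MEF. Isg15, a ubiquitin-like modifier, was at 12.3, 12.6 and 10.6 CPM at day 5, against 3.34, 3.06 and 2.78 CPM in MEF. All day 5 libraries lay above all MEF libraries for these, at low levels. Stat2, which carries the interferon signal, rose by 1.98 ± 0.085, and its partner Irf9 by 1.30 ± 0.097. Mx1, the antiviral GTPase, was at 4.91 ± 0.594 CPM at day 5 against 7.48 ± 0.111 CPM in MEF and was not called. Irgm1, a GTPase, fell by 1.82 ± 0.049, and Irf5 and Irf8, factors of myeloid cells, changed by -1.41 ± 0.14 and -1.38 ± 0.098. Of 20 MHC class I and antigen processing genes, 8 rose and 0 fell. Their summed signal was lower, at 2784 to 2872 CPM at day 5 against 3275 to 3426 CPM in MEF. H2-K1 was at 80.5 ± 4.40 CPM at day 5 against 24.6 ± 1.13 CPM in MEF. Its light chain B2m, not called, was at 354 ± 10.6 CPM at day 5 against 403 ± 11.6 CPM in MEF.

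A form of the interferon-stimulated response element, GAAA followed by any 2 bases and GAAA again, lay on either strand in 16 of 29 windows of the interferon list (55.2%), against 3.49% of all windows, 5.09% of genes higher at day 5, 2.85% of genes lower and 2.73% of tested genes not called. This list too was drawn from known response genes and the motif chosen after values were seen, so its share describes the list. The stretches of Ifit1, Ifit3 and Isg15 are shown because the pattern, in capitals, recurs within each of them.
Ifit1 (chr19:34640760-34640838, plus strand): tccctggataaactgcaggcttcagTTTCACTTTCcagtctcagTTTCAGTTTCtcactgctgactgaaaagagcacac
Ifit3 (chr19:34583348-34583441, plus strand): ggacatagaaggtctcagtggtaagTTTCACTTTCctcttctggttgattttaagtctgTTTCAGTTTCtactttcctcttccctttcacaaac
Isg15 (chr4:156200850-156200921, minus strand): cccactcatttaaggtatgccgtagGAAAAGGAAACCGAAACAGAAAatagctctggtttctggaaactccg
Ifit1 and Ifit3 carry 2 matches each on the opposite strand, and Isg15 carries 3 that overlap.

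Growth factor receptors and ligands changed in both directions, with 11 of 45 higher and 17 lower. Pdgfra, the alpha receptor of platelet-derived growth factor, was at 1178, 1157 and 1203 CPM at day 5, against 6.05, 12.3 and 8.72 CPM in MEF. Its ligands moved the other way. Pdgfa was at 3.36, 3.05 and 3.61 CPM at day 5, against 63.8, 68.1 and 66.6 CPM in MEF, Pdgfb fell by 3.93 ± 0.11 and Pdgfc fell by 2.42 ± 0.063. The receptor was thus higher and those ligands lower in every day 5 library, while the beta receptor Pdgfrb was at 266 ± 6.08 CPM at day 5 against 209 ± 5.04 CPM in MEF, not called. Other factors that rose were Vegfd, a lymphatic growth factor, by 5.27 ± 0.10, the neurotrophin receptor Ntrk2 by 5.02 ± 0.086, Fgf10 by 4.32 ± 0.093 and Kitl, stem cell factor, by 3.66 ± 0.089. Gas6, Hgf, Fgfr2, Fgfr4, Gdnf and Vegfb completed the rises, with changes from 2.69 to 1.35. Fgf2, a fibroblast growth factor, fell by 1.58 ± 0.061.

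Targets and feedback inhibitors of the ERK kinases were lower in 11 of 22 and higher in 2. Dusp5, Dusp4 and Dusp6, phosphatases that switch ERK off, changed by -4.80 ± 0.12, -4.51 ± 0.065 and -2.22 ± 0.068, and Etv4, an ETS factor, fell by 3.94 ± 0.090. The immediate early genes Egr1 and Fos rose, by 1.46 ± 0.050 and by 1.16 ± 0.076. Egr1 was at 165, 183 and 175 CPM at day 5, against 60.2, 62.8 and 65.3 CPM in MEF, so the groups stood apart.

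In the insulin-like growth factor system, 6 of 20 members rose and 5 fell. Igf1 was at 519, 529 and 548 CPM at day 5, against 91.1, 89.8 and 95.02 CPM in MEF. Igf2, the fetal ligand, was at 8403 ± 346 CPM at day 5 against 4823 ± 259.7 CPM in MEF and was not called. Several binding proteins rose, with Igfbp5 at 5539, 5641 and 5731 CPM at day 5, against 175, 185 and 187 CPM in MEF. Igfbp4 rose by 4.92 ± 0.063 and Igfbp3 by 3.07 ± 0.033. Pappa2 and Pappa, proteases that release the ligands from binding proteins, changed in opposite directions, with log2 changes of 5.81 ± 0.21 and -2.35 ± 0.036. The receptor Igf1r fell by 1.11 ± 0.054, and Igfbp7, Stc2 and Igf2bp1 were the other members that fell.

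Receptors of peptide and lipid hormones were higher in 13 of 28 and lower in 6. The angiotensin system was represented at several steps. Beside Agtr2, the precursor Agt rose by 2.46 ± 0.13, the converting enzyme Ace was at 63.2, 64.8 and 66.0 CPM at day 5, against 0.940, 0.369 and 0.534 CPM in MEF, and the type 1 receptor Agtr1a rose by 3.03 ± 0.14. Lpar1, a receptor of the lysophosphatidic acid that Enpp2 makes, was at 198, 196 and 199 CPM at day 5, against 8.54, 11.0 and 11.7 CPM in MEF. All these day 5 libraries lay above those of MEF. F2rl1 and F2r, receptors cleaved by trypsin and thrombin, changed by -4.33 ± 0.097 and -2.52 ± 0.032, and Gpr39, Edn1 and Ednrb also fell.

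Of 16 prostanoid genes tested, 7 rose and 4 fell. Ptgs2, the inducible cyclooxygenase, was at 12.2, 12.2 and 13.4 CPM at day 5, against 684, 642 and 629.5 CPM in MEF, and every day 5 library was lower. Ptgs1, its constitutive counterpart, was at 18.8 ± 1.95 CPM at day 5 against 28.4 ± 2.38 CPM in MEF and was not called. Ptgds, the prostaglandin D synthase, was at 85.1, 87.3 and 87.2 CPM at day 5, against 0, 0.0894 and 0.120 CPM in MEF, and the prostaglandin receptors Ptgfr and Ptger3 rose by 4.79 ± 0.15 and by 3.46 ± 0.097. Hpgd, which inactivates prostaglandins, rose by 3.78 ± 0.12. The other members that fell were Hpgds, Tbxas1 and Pla2g4a.

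Wnt genes were described as ligands, receptors with antagonists, and targets. Of 12 ligands and secretion factors, 5 rose and 4 fell, with Porcn, which attaches the lipid that Wnt proteins need, rising by 2.41 ± 0.073, Wnt16 rising by 2.57 ± 0.11, Wnt9a changing by -3.75 ± 0.12 and Wls, the Wnt carrier, changing by -1.41 ± 0.035. Wnt6 rose by 2.14 ± 0.14, and the ligands Wnt10b and Wnt5a fell. Of 27 receptors and antagonists, 11 rose and 4 fell, and the share that fell lay near the 13.7% of all tested genes. The rises were led after Draxin and Sfrp2 by Rspo1, a Wnt enhancer, at 2.74 ± 0.12, and the receptor Fzd4 at 2.59 ± 0.068. Those that fell were Fzd7, Rspo3, Fzd10 and Dkk2, all under 4-fold. Of 13 targets, 4 rose and 4 fell. Lgr5, a receptor of R-spondins and a Wnt target, was at 66.0, 60.2 and 65.0 CPM at day 5, against 0.621, 0.135 and 0.303 CPM in MEF. Nkd1 and Axin2, feedback inhibitors, rose by 2.39 ± 0.12 and by 1.68 ± 0.12, and Tnfrsf19, also called TROY, by 1.71 ± 0.14. Their relatives Nkd2 and Lgr6 changed by -2.67 ± 0.15 and -2.97 ± 0.25, and Lef1 and Ccnd1 changed by -1.57 ± 0.26 and -2.12 ± 0.048. Nkd1 and Nkd2, and likewise Lgr5 and Lgr6, were thus called in opposite directions.

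Hedgehog genes rose in 5 of 12 and fell in 1. Gli1, the pathway's transcription factor and standard target, was at 6.55, 9.86 and 8.72 CPM at day 5, against 0.0823, 0.445 and 0.196 CPM in MEF. The coreceptors Gas1 and Cdon rose by 4.62 ± 0.049 and by 2.65 ± 0.067, and Gli2 by 2.64 ± 0.17. The groups were separate for Gli1, although Ptch1, the other standard target, was at 15.7 ± 0.642 CPM at day 5 against 18.5 ± 2.21 CPM in MEF and was not called. Dhh, a ligand, fell by 1.80 ± 0.14.

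Notch genes leaned down by count, with 9 of 19 lower and 2 higher. Their summed signal, which includes the abundant Dlk1, was higher, at 1446 to 1523 CPM at day 5 against 696 to 706 CPM in MEF. Hes1 and Heyl, targets that repress transcription, changed by -2.29 ± 0.086 and -2.86 ± 0.12, Lfng, which modifies the receptor, fell by 2.72 ± 0.10, Hey2 fell by 2.02 ± 0.11 and the ligand Jag1 fell by 1.92 ± 0.064. Dlk1, a Notch-like ligand that holds back fat cell formation, was at 1014, 1068 and 1040.3 CPM at day 5, against 13.2, 14.8 and 12.8 CPM in MEF and rose, as did Rfng. The receptors Notch1 and Notch2 were at 27.9 ± 3.45 CPM at day 5 against 45.1 ± 2.26 CPM in MEF and at 127 ± 4.18 CPM at day 5 against 88.0 ± 1.75 CPM in MEF, neither called.

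Of 36 cyclic AMP genes, 10 rose and 5 fell, or 41.7% called, against 28.4% of all genes. The share that fell lay near the 13.7% of all tested genes. Phosphodiesterases, which break cyclic AMP down, made up most of the rises. Pde4b, one that the pathway induces, was at 81.8, 78.7 and 84.1 CPM at day 5, against 18.7, 15.5 and 16.4 CPM in MEF, Pde7b rose by 3.64 ± 0.067 and Pde1a by 2.76 ± 0.11. Ppargc1a, a coactivator of mitochondrial genes, was at 18.8, 25.4 and 20.3 CPM at day 5, against 0.305, 1.07 and 0.345 CPM in MEF, and Adcy5, an adenylyl cyclase, rose by 2.81 ± 0.093. The day 5 libraries were the higher ones for each. Nr4a1, an immediate target, fell by 1.13 ± 0.073, Adcy7 fell by 2.51 ± 0.10 and the kinase subunit Prkar2a fell by 1.55 ± 0.066, and Pkia and Prkar1b also fell. Nr4a2 and Nr4a3 were at 6.63 ± 2.96 CPM at day 5 against 6.69 ± 1.82 CPM in MEF and at 3.14 ± 0.313 CPM at day 5 against 2.80 ± 0.161 CPM in MEF, not called.

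Glucocorticoid targets rose in 11 of 15 tested and fell in 1, with a median of 2.39. Zbtb16, a zinc finger repressor, was at 23.6, 25.2 and 24.99 CPM at day 5, against 0.0819, 0.0758 and 0.0408 CPM in MEF. Fkbp5, a chaperone that feeds back on the receptor, was at 137, 128 and 136 CPM at day 5, against 23.3, 24.8 and 25.9 CPM in MEF. Day 5 libraries were above MEF libraries in both. Angptl4, an inhibitor of lipoprotein lipase, rose by 4.04 ± 0.045, Lcn2, an iron-sequestering lipocalin, by 3.66 ± 0.10, and the metallothioneins Mt2 and Mt1 by 3.43 ± 0.080 and by 2.73 ± 0.12. Dusp1 fell by 1.22 ± 0.066, and the receptor Nr3c1 was at 93.0 ± 2.73 CPM at day 5 against 78.3 ± 2.23 CPM in MEF, not called.

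Retinoic acid genes were higher in 6 of 18 and lower in 1, or 2 without MEF replicate 1. In the main fit 38.9% were called, against 28.4% of all genes. Crabp1, which binds retinoic acid in the cytoplasm, was at 381, 413 and 391 CPM at day 5, against 21.4, 23.7 and 24.6 CPM in MEF, and Cyp26b1, which degrades it, rose by 2.85 ± 0.064. All day 5 libraries were above MEF for Crabp1. Aldh1a3, a synthetic enzyme, fell by 2.53 ± 0.11 while its relative Aldh1a1 rose by 1.21 ± 0.075 and the retinol carrier Rbp4 by 1.71 ± 0.13.

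Axon guidance genes were split evenly, with 12 of 49 higher and 12 lower. Slit3, a ligand, and Robo2, a receptor of Slit proteins, rose by 2.74 ± 0.052 and by 2.34 ± 0.10, and Sema5a rose by 2.43 ± 0.042. Unc5b, a netrin receptor, was at 16.8, 16.9 and 16.6 CPM at day 5, against 436, 473 and 478 CPM in MEF. Epha2, an ephrin receptor, fell by 4.18 ± 0.087 and Sema7a fell by 3.22 ± 0.10. For Unc5b all MEF libraries were the higher ones.

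Mesenchymal transcription factors changed gene by gene. Of 66 tested, 16 rose and 19 fell, and with a filter at 5 CPM 16 rose and 13 fell. Osr2, an odd-skipped factor of joints and palate, was at 30.2, 32.4 and 30.2 CPM at day 5, against 0.815, 0.543 and 0.624 CPM in MEF. Meox2, a homeobox factor of mesoderm, rose by 3.14 ± 0.14. Ebf1, a factor of adipocyte and B cell lineages, rose by 3.00 ± 0.081 and Nfia by 2.70 ± 0.079, and Twist1 and Snai1, factors of mesenchyme, rose by 2.02 ± 0.045 and by 1.38 ± 0.10. Tbx20, a heart factor, was at 0.681, 0.326 and 0.940 CPM at day 5, against 11.96, 11.1 and 19.99 CPM in MEF. Msx2 fell by 3.01 ± 0.11, Gata3 fell by 2.68 ± 0.22 and Foxp1 fell by 2.21 ± 0.069. Also higher were Tbx15, Nfib, Nfix, Osr1, Twist2, Gata6, Shox2, Hic1, Tbx18 and Snai2. The groups were separate for Osr2 and for Tbx20, in opposite directions. Prrx1, a limb mesenchyme factor, was at 401 ± 13.2 CPM at day 5 against 298 ± 18.5 CPM in MEF, not called.

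Of 35 Hox genes, 5 rose and 8 fell, or 37.1% called, against 28.4% of all genes. The share that rose lay near the 14.7% of all tested genes. Hoxa10 and Hoxa9 rose by 1.89 ± 0.060 and by 1.71 ± 0.083, and Hoxa2 by 1.38 ± 0.11. Hoxb9 was at 10.7, 10.6 and 12.2 CPM at day 5, against 50.6, 53.1 and 53.7 CPM in MEF, lower in every day 5 library. Hoxd13, Hoxd12, Hoxd11 and Hoxd10, 4 neighbours on chromosome 2 between 74668310 and 74695105, all fell, while Hoxd8 and Hoxd4 of the same cluster rose by 1.49 ± 0.082 and by 1.23 ± 0.13. Of 25 retinal and neural transcription factors listed, 9 were tested, 2 rose and 1 fell. That is 33.3% called, close to the share of all genes, and those called were at a few CPM or less. Rorb, a nuclear receptor of photoreceptor precursors, was at 3.60 ± 0.632 CPM at day 5 against 0.758 ± 0.300 CPM in MEF, and Thrb, the thyroid hormone receptor beta, at 4.20 ± 0.442 CPM at day 5 against 0.819 ± 0.261 CPM in MEF. Sox2, a factor of neural progenitors, was at 0.0775, 0.195 and 0 CPM at day 5, against 1.34, 1.36 and 1.20 CPM in MEF.

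Adipogenic regulators and lipid handling genes rose in 21 of 26 tested and fell in 1. Lpl, lipoprotein lipase, was at 1158, 1145 and 1144 CPM at day 5, against 19.1, 20.2 and 18.1 CPM in MEF. Fabp4, the fatty acid carrier of fat cells, was at 236, 224 and 225 CPM at day 5, against 3.60, 2.69 and 3.80 CPM in MEF. Cebpa and Pparg, the regulators of fat cell differentiation, were at 41.5 ± 1.29 CPM at day 5 against 5.56 ± 0.948 CPM in MEF and at 21.2 ± 1.78 CPM at day 5 against 0.886 ± 0.142 CPM in MEF. Each of these had its day 5 libraries above its MEF libraries. Apod, a lipid-binding apolipoprotein, rose by 4.47 ± 0.083 and Plin1, the coat of fat droplets, by 3.72 ± 0.11. The hormone gene Adipoq was at 3.10, 2.38 and 2.53 CPM at day 5, against 0 in all 3 MEF libraries, and Pnpla2, the triglyceride lipase, fell by 1.15 ± 0.10. Cholesterol and fatty acid synthesis genes rose in 9 of 26 and fell in 0, led by Elovl6, a fatty acid elongase, at 2.07 ± 0.073, Dhcr7, a late enzyme of cholesterol synthesis, at 1.82 ± 0.10, Insig1, a sterol sensor, at 1.40 ± 0.050 and Scd1, a fatty acid desaturase, at 1.39 ± 0.045.

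Cell cycle genes differed between lists. All 26 replication and mitosis genes had a positive change, with a median of 0.63 against 0.01 over all genes. Their summed signal was 1676 CPM at day 5, against 1055 to 1071 CPM in MEF. Most of these changes were under 2-fold, so that 5 rose and 0 fell, a share of 19.2% called, against 28.4% of all genes. They were Mki67, a proliferation marker, at 181 ± 5.07 CPM at day 5 against 77.3 ± 2.86 CPM in MEF, Top2a, Bub1b, Cenpf and Aurkb. Of 23 cyclins and their inhibitors, 5 rose and 5 fell. Cdkn1c, the p57 inhibitor, was at 762, 832 and 688 CPM at day 5, against 81.8, 86.5 and 89.8 CPM in MEF. Cdkn1a, the p21 inhibitor and a p53 target, was at 232, 238 and 239.8 CPM at day 5, against 1141, 1123 and 1174 CPM in MEF. The inhibitors thus moved in opposite directions in every library. Cdkn2c rose by 2.91 ± 0.088, and Ccnd1, Ccnd2 and Cdk6, which drive cells into the cycle, changed by -2.12 ± 0.048, -1.69 ± 0.035 and -1.89 ± 0.075. Among 20 p53 targets 9 fell and 1 rose. Perp, a desmosome protein, fell by 4.45 ± 0.075, Plk2 fell by 3.39 ± 0.042, Pmaip1, which promotes apoptosis, fell by 2.76 ± 0.054 and Mdm2, which degrades p53, fell by 2.61 ± 0.041, while Sesn1 rose by 1.58 ± 0.068.

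Genes of the amino acid response, which ATF4 drives, were mostly lower where called. Of 25 ATF4 and unfolded protein response genes, 12 fell and 1 rose. Trib3, a pseudokinase that ATF4 induces, was at 0.510, 0.667 and 0.253 CPM at day 5, against 24.5, 26.5 and 26.2 CPM in MEF. Chac1, which degrades glutathione, was at 0.663, 0.538 and 0.445 CPM at day 5, against 22.7, 21.7 and 23.8 CPM in MEF. Asns, asparagine synthetase, fell by 2.42 ± 0.044 and Mthfd2, of the mitochondrial folate cycle, fell by 2.65 ± 0.056. The chaperone Hspa5, the readout of unfolded proteins in the endoplasmic reticulum, was at 785 ± 11.1 CPM at day 5 against 1148 ± 2.72 CPM in MEF, not called. All MEF libraries were higher for Trib3 and Chac1. Slc7a11, the cystine transporter, rose by 2.94 ± 0.083.

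Of 26 NRF2 and detoxification genes, 13 rose and 3 fell, or 1 after quantile normalization. Mgst1, a membrane glutathione transferase, was at 313, 301 and 311 CPM at day 5, against 13.7, 14.98 and 12.7 CPM in MEF, with Gstt1 rising by 3.93 ± 0.11, Aldh1a7 by 4.17 ± 0.11 and Sod2, the mitochondrial superoxide dismutase, by 2.45 ± 0.050. Some standard NRF2 targets did not share this. Nqo1 was at 10.4 ± 0.183 CPM at day 5 against 17.5 ± 0.375 CPM in MEF, not called, and Txnrd1, Gclm and Hmox1 changed by -1.26 ± 0.030, -1.29 ± 0.089 and -1.01 ± 0.037. The calls of Txnrd1 and Hmox1 were lost after quantile normalization, and that of Hmox1 also without day 5 replicate 3 and without MEF replicate 2 or 3. Glycolysis and hypoxia genes were lower in 8 of 28 and higher in 4, and the share that rose lay near the 14.7% of all tested genes. Eno1, enolase, fell by 1.75 ± 0.031, Egln3, an oxygen sensor, fell by 1.65 ± 0.085 and the glucose transporter Slc2a1 fell by 1.51 ± 0.043, whereas Epas1, hypoxia factor 2 alpha, rose by 2.30 ± 0.079, Ldhb by 1.73 ± 0.035, Ndrg1 by 1.52 ± 0.051 and Eno2 by 1.01 ± 0.096. The call of Eno2 was lost without day 5 replicate 1 or MEF replicate 3.

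Of 22 pluripotency and epigenetic regulators, 6 rose and 1 fell, a share of 31.8% close to the 28.4% of all genes. H1f0, a linker histone variant, rose by 2.06 ± 0.035, and Tet1, which oxidises methylated cytosine, was at 12.9 ± 1.20 CPM at day 5 against 2.94 ± 1.55 CPM in MEF. Among histone deacetylases, Hdac10 and Hdac11 rose by 1.18 ± 0.11 and by 1.11 ± 0.10, and Hdac9 fell by 1.29 ± 0.11.

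Markers of several other cell types were lower at day 5. All 7 epithelial markers tested fell, with Cldn4 at 0.547 ± 0.144 CPM at day 5 against 30.6 ± 1.62 CPM in MEF and a summed signal of 18.04 to 21.6 CPM at day 5, against 222 to 240.3 CPM in MEF. Of 7 Schwann cell and neural crest markers 5 fell and 1 rose, S100b, with a summed signal of 196 to 204 CPM at day 5, against 316 to 321 CPM in MEF. Sox10, the defining factor of these cells, was at 0.0443, 0 and 0.239 CPM at day 5, against 20.1, 18.99 and 21.4 CPM in MEF, so day 5 libraries were close to 0. Among 8 endothelial markers 3 fell and 2 rose, with a summed signal of 44.7 to 47.8 CPM at day 5, against 162 to 168 CPM in MEF, Flt1, a receptor of vascular endothelial growth factor, at 10.1 ± 0.691 CPM at day 5 against 125 ± 3.43 CPM in MEF and Tek, the angiopoietin receptor, at 16.5 ± 0.844 CPM at day 5 against 1.51 ± 0.185 CPM in MEF. Skeletal muscle markers went the other way, with 6 of 13 higher, 2 lower and a summed signal of 622 to 650.0 CPM at day 5, against 377 to 416 CPM in MEF. Myod1, the muscle-determining factor, rose by 2.51 ± 0.13. Myog, myogenin, the factor of fusing muscle cells, was at 48.0, 47.2 and 46.9 CPM at day 5, against 9.02, 12.5 and 12.8 CPM in MEF. Pax7, the factor of muscle stem cells, was listed at 0 in all 3 day 5 libraries, against 2.20, 2.86 and 2.56 CPM in MEF, and Acta1, skeletal actin, fell by 1.06 ± 0.059. The part that these cells had in other changes was not tested.

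Some genes were present in one group alone by a level rule, at least 10 CPM in all 3 libraries of one group and under 1 CPM in all 3 of the other. There were 99 genes on at day 5 and off in MEF, and the 5 highest were Agtr2, Dpt, Draxin, Steap4 and Egfl6. The reverse held for 52 genes. Among the 5 highest of these were Ptprb, a phosphatase of blood vessel endothelium, at 0.120, 0.516 and 0.228 CPM at day 5, against 49.2, 51.2 and 48.4 CPM in MEF, and Fcrls, an Fc receptor-like gene of macrophages, at 0.0968, 0.0650 and 0.131 CPM at day 5, against 48.3, 45.7 and 44.0 CPM in MEF. Lce1h, a protein of the cornified skin envelope, was at 0, 0.0390 and 0 CPM at day 5, against 32.4, 34.2 and 41.2 CPM in MEF, and Cx3cr1, the receptor of fractalkine on macrophages, at 0.154, 0.160 and 0.283 CPM at day 5, against 31.9, 35.8 and 33.9 CPM in MEF. The predicted gene Gm10184, also among the 5, was listed at 0 in all 3 day 5 libraries, against 46.7, 51.1 and 41.4 CPM in MEF. Values of the endothelial, macrophage and epithelial marker lists stand beside those lists, and the part of such cells in these falls was not tested.

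Levels of the leading genes at later times are given without a test. Saa3 was at 36137 ± 1926 CPM at day 8 and 14.9 ± 1.85 CPM in CiPC, and at 3.18 ± 0.708 CPM in rods of postnatal day 5. Agtr2 was at 1696 ± 160.4 CPM at day 8 and 0.616 ± 0.312 CPM in CiPC. Dpt was at 1551 ± 65.2 CPM at day 8 and 0.102 ± 0.0559 CPM in CiPC. These genes were high at both intermediate times and low at the end. Of the genes that fell, Ctgf was at 6.22 ± 0.717 CPM at day 8 and 334 ± 11.6 CPM in CiPC, and Tagln at 8.45 ± 1.93 CPM at day 8 and 914 ± 78.4 CPM in CiPC. Both were thus lowest at day 8 among the cultured groups.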

How the data were processed

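RNA was sequenced from 80 ng of total RNA per sample, per the labels. The authors deposited 1 table of normalized signal in CPM for 33 libraries, and kallisto is named per the submitters' processing notes. For build, annotation, scaling and strand of counting, details were not given in the sources used here, so overlapping or antisense genes cannot be told apart. Columns do not share a fixed total and hold no whole reads, so the depth is unknown and no count model was used. From these values log2(CPM + 1) was computed for the 6 libraries and fitted with limma 3.58.1 (variance prior with mean trend) in R 4.3.3, which gives every adjusted p here. Genes needed at least 1 CPM in at least 3 libraries. The fit was tested on simulated data and recovered 100% of 50 genes at each of 3-, 5-, 10- and 20-fold. Those changes were placed in genes of at least 10 CPM in MEF, with most genes unchanged. The noise was independent between libraries, at each gene's observed spread. With spread that small, recovery was nearly certain, and it says nothing of genes at low levels.

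The text names the 12 largest rises and falls among called genes of at least 10 CPM without overlap and with an ordinary symbol, up to 4 called members per list with the largest change, those against the majority, members that give a role, the label checks, and the 5 highest on and off genes. Some genes that this rule names are not reported here, in the text or the figures. The members and lists were chosen with earlier results of these data known. Coordinates are GENCODE M21 on GRCm38, with 99.05% of identifiers matched. Alternatives were other pseudocounts, filters, scalings, thresholds and sample sets, a replicate block, and leaving out each library.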

Additional observations from a re-analysis of the deposited data

How the results depend on the processing

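The counts of 1997 higher and 1863 lower genes stayed within 1.5 times under most alternatives. Of 358 named genes with a test, 0 reversed in any, but only genes called in the main fit could count as reversed. Of the 358, 241 kept their side of the threshold in every alternative in which they were tested. With the filter at 5 CPM, 341 of them were compared. Acta1, Col11a1, Hdac11 and Igf1r lost their call after quantile normalization, beside those given above. A pseudocount of 5 gave 1185 higher and 1280 lower genes. Without a fold threshold 5531 were higher and 5479 lower, and with a fold of at least 4 there were 699 and 624. A pseudocount of 0.5 gave 2178 higher and 1979 lower, a filter at 5 CPM 1601 and 1537, no filter 2008 and 1869, quantile normalization 1773 and 1913, median-of-ratios scaling 1980 and 1892, and a fit of all 12 cultured libraries 2006 and 1867. Leaving out 1 library at a time gave 1996 to 2017 higher and 1858 to 1880 lower genes. The replicate block gave 1997 higher and 1864 lower genes. Same-numbered libraries correlated at 0.0956, -0.0056 and -0.0470 in their deviations, so the numbers were not taken as pairs. Of 106 list counts, 101 stayed within 1.5 times with a pseudocount of 0.5, 80 with 5, 99 after quantile normalization and 104 to 106 with a library left out. The cause of these shifts was not tested. Read depth is unknown, so the error of low values cannot be stated.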

Other observations

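Gene groups below were chosen after their values were seen, so they are descriptions with no test. Of 16 enzymes listed that make and convert steroid hormones, 11 were in the table and tested. Of these 8 rose and 0 fell, with a median change of 4.18. The filter can favour rises here. Most of those that rose, such as Cyp21a1 and Hsd3b1, were near or under 1 CPM in MEF and tested only through their day 5 level. Star, which carries cholesterol into mitochondria, was at 52.8, 47.1 and 50.3 CPM at day 5, against 3.74, 3.72 and 3.86 CPM in MEF. Cyp11a1, which cuts the cholesterol side chain, was at 33.7, 33.1 and 38.3 CPM at day 5, against 0.515, 1.13 and 0.776 CPM in MEF. Cyp21a1, the 21-hydroxylase of the adrenal cortex, was at 25.8, 29.3 and 25.2 CPM at day 5, against 0.0685, 0.271 and 0.0338 CPM in MEF. Day 5 libraries lay above all MEF libraries for these genes. Hsd11b1, which activates glucocorticoids, rose by 5.03 ± 0.11. Among 8 regulators, hormone receptors and electron carriers of the same pathway, 5 rose and 0 fell, with the same limit for Nr5a1 and Mc2r. Nr5a1, steroidogenic factor 1, was at 4.78, 4.96 and 5.15 CPM at day 5, against 0.309, 0.731 and 0.174 CPM in MEF, and Mc2r, the receptor of adrenocorticotropic hormone, was at 3.71, 3.83 and 3.86 CPM at day 5, against 0.163, 0.0379 and 0.0407 CPM in MEF.

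Imprinted genes were higher in 10 of 21 tested and lower in 1, Impact, beside the change of Dlk1 already given. A list of epithelial genes fell in 16 of 16 tested, with a median change of -4.28. It holds cornified envelope genes of the skin, such as Ivl, Lce1h and Sprr2k, and genes of cell junctions or other epithelia, such as Dsp, Pkp2, Cldn4, Krt20 and Upk1b. All 7 epithelial markers tested fell too, among them Cldn4, which both lists hold. On chromosome 3 a run of 13 adjacent tested genes that all fell, between 90560578 and 93015687, begins with S100a3 and ends with Crct1. In all, 28 runs of at least 4 neighbouring tested genes were higher and 17 lower, and several of them hold near-identical gene copies between which reads are divided uncertainly.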
